A study of Mus musculus with 4 samples.

Results

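The genes described here are 10 rows of the deposited gene count table, of 55418 rows in all, taken by name as germline and meiosis genes that DNA methylation and the repressor complex PRC1.6 are known to silence in ESCs. They are Dazl, Ddx4, Mael, Stk31, Sycp1, Sycp3, Hormad1, Taf7l, Slc25a31 and Tex101. Of the 10, 6 passed the test as higher in Pim3-/- than in WT ESCs, beside 17.6% of all tested genes, 1 (Hormad1) passed as lower, beside 16.2%, and 3 did not pass. Without either WT library, 1 of the 10 (Mael) was still called higher. The changes that passed ran from a 1.79-fold decrease of Hormad1 to a 5.37-fold increase of Taf7l.

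RNA-seq was carried out on 4 libraries of the mouse ESC line E14, 2 labelled WT and 2 labelled Pim3-/-, a knockout of the serine/threonine kinase Pim3. Both groups were grown on gelatin in serum medium to which LIF, a cytokine that maintains the undifferentiated state, was added, and the labels give the strain of both as 12910la. The knockout was made with CRISPR/Cas9 and a pair of guide RNAs in Pim3 exons. The labels number the Pim3-/- libraries as replicates, while the paper names 2 separate knockout clones as the source of their RNA. For WT it names 2 biological samples. A difference between the Pim3-/- libraries is thus also one between clones. Which number stands for which clone is not given in the sources used here, so a difference between the groups cannot be told apart from one between single cultures or clones.

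Germline genes carry CpG-rich promoters that are methylated during early development in the cells that will form the body, and they are switched on again in primordial germ cells when that methylation is erased. In ESCs many of them are also held silent by PRC1.6, a Polycomb complex whose subunits MGA and MAX bind the E-box sequence and whose subunit E2F6 binds E2F sites. The products serve the germ granule and piRNA pathway, which restrains transposons, the pairing of chromosomes in meiosis, and the metabolism and surface of sperm.

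The libraries held 22029427 to 25668307 counts. CPM below are counts divided by the library total in units of 1e6, after scaling by the TMM factors of edgeR, and each mean is given with the SD of its 2 libraries. The factors were lower for WT (0.8276 and 0.8828) than for Pim3-/- (1.168 and 1.172), and without them the median over 18444 tested genes moved from a log2 fold change of 0.07 to 0.52. Pim3 had 4392 and 4953 counts in WT, against 4970 and 4804 in the libraries labelled Pim3-/-, a log2 fold change of -0.27 (SE 0.17, adjusted p = 0.251 by edgeR's quasi-likelihood test) that was 0.19 with library totals. The count over the whole gene therefore does not check the labels. All 10 ESC markers on a list that includes Pou5f1 and Klf4 were counted in each library, with a summed level of 9800 to 10900 CPM in WT and 6630 to 6980 CPM in Pim3-/-. In bulk RNA, fewer cells of a type and less RNA per cell cannot be told apart.

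The promoters are shown first, since they carry the sequences through which PRC1.6 is known to find its genes. RefSeq windows of GRCm38.p6, from 250 bases before to 50 bases after the transcription start, were found for all 10 genes and searched for the E-box CACGTG, which reads the same on both strands, and for the E2F core GCGGGA on either strand. The motifs share no letters that would make one contain the other. The E-box was present in 8 of the 10 windows, against 7.24% of the 27025 genes with a window in the RefSeq table (the first listed for each gene) and 11.4% of the 9857 windows with a CpG content of at least 0.6 of that predicted from base composition. The 10 E-box copies are printed with 12 bases on either side, in the direction of the gene, with the E-box in capitals.
Ddx4 (chr13:112652322-112652351, minus strand): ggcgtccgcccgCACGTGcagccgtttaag
Mael (chr1:166238950-166238979, minus strand): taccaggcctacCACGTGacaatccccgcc
Stk31 (chr6:49395472-49395501, plus strand): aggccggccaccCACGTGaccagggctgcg
Sycp1 (chr3:102936177-102936206, minus strand): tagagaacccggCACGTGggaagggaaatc
Sycp3, upstream copy (chr10:88459511-88459540, plus strand): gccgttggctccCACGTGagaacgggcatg
Sycp3, downstream copy (chr10:88459532-88459561, plus strand): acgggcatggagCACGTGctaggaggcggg
Hormad1, upstream copy (chr3:95559608-95559637, plus strand): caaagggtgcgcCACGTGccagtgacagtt
Hormad1, downstream copy (chr3:95559645-95559674, plus strand): atgcgcactgcgCACGTGctgaccggagcg
Taf7l (chrX:134476522-134476551, minus strand): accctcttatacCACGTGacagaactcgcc
Slc25a31 (chr3:40708766-40708795, plus strand): cgcaactggaaaCACGTGttatggtcacat
The E-box began 20 to 94 bases before the start in 7 of the genes and 223 bases before it in Mael, and Sycp3 and Hormad1 held 2 copies each. The E2F core was found in 6 of the 10 windows, those of Ddx4, Mael, Sycp1, Sycp3, Hormad1 and Slc25a31, against 20.0% of all windows and 43.0% of the CpG-rich ones. All 6 also held the E-box, whereas both were held by 2.05% of all windows, 4.79% of the CpG-rich ones and 3.84% of those of tested genes. Since the genes were listed as targets of this complex, the share of motifs describes the list and is no result of the libraries.

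**Figure D1:**
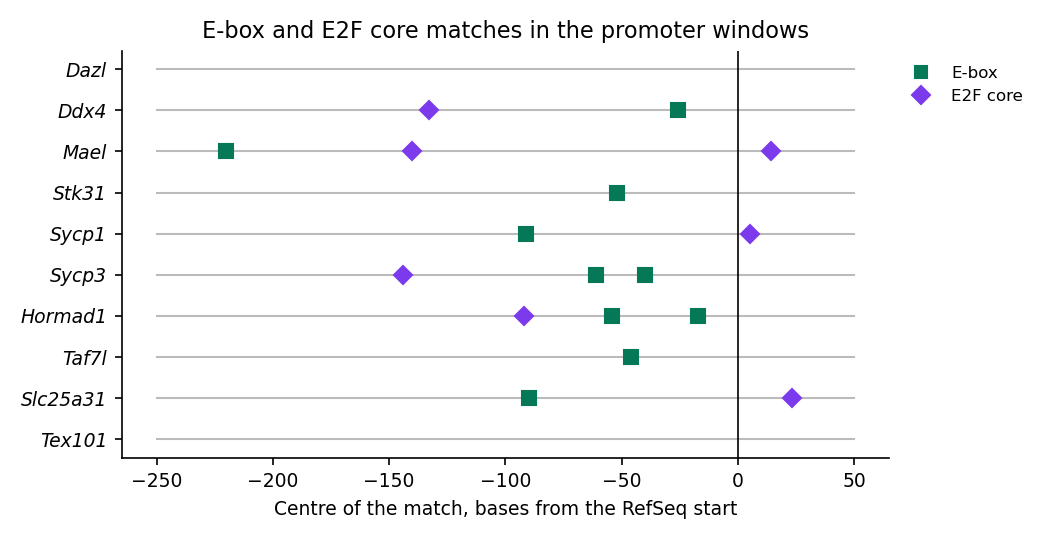
Centres of the E-box and E2F core matches in the 10 promoter windows, with 1 line per gene and the distance from the RefSeq transcription start in bases on the x axis. The E-box centres of 7 genes lie between -91 and -17, that of Mael lies at -220, and the lines of Dazl and Tex101 are empty.

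3 longer upstream stretches show the range, with E-boxes and E2F cores in capitals and the last base next to the annotated exon. Mael, the gene among the 10 with the lowest adjusted p, holds an E-box 223 bases and an E2F core 143 bases before the start. Hormad1, the gene that was lower, holds 2 E-boxes and an E2F core within 95 bases of the start. Dazl, which was higher, holds neither motif.
Mael (chr1:166238748-166238994, minus strand): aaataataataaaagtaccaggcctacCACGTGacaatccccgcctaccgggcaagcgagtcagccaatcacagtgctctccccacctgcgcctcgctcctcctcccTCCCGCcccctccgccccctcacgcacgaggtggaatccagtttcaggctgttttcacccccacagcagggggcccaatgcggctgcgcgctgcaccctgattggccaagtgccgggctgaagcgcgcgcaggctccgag
Hormad1 (chr3:95559427-95559676, plus strand): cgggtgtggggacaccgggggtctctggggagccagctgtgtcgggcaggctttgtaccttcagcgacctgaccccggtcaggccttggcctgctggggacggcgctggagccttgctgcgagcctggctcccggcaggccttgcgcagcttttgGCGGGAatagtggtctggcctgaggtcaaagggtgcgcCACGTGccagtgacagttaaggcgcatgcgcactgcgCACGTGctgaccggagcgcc
Dazl (chr17:50293637-50293870, minus strand): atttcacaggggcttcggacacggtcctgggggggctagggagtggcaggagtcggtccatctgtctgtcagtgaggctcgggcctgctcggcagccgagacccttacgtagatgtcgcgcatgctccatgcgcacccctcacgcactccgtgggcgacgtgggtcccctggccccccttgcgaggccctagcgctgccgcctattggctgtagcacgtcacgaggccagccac
Each of the 10 windows had CpG at 0.6 or more of the predicted frequency, a value reached by 36.5% of all windows and 67.4% of those of tested genes. The CpG count ran from 15 in Sycp3 to 38 in Ddx4, with a median of 23 against 7 over all windows. A motif match is a description of these letters and not of binding, and the grouping by motif did not follow the calls. Of the 8 genes with an E-box, Ddx4, Mael, Sycp3 and Taf7l were higher, Hormad1 was lower and Stk31, Sycp1 and Slc25a31 did not pass the test. Dazl and Tex101, which have neither motif in these windows, were both higher. The Tex101 window (chr7:24672001-24672300) lies within the annotated gene (chr7:24668007-24676675, minus strand). Sequence at the annotated start, 24676675, was therefore not searched.

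All 10 genes were counted in every library, with 27 to 1484 counts, and none was removed for low counts. Per kb of merged exon length, so that genes can be compared, their mean level in WT lay between 0.519 CPM per kb for Sycp1 and 8.35 for Mael, and 6 of the 10 lay above the median of 3.19 CPM per kb over the tested genes with a length. The order of the WT levels was Mael, Slc25a31 (6.11 CPM per kb), Ddx4 (5.33), Sycp3 (4.05), Hormad1 (3.79), Dazl (3.57), Stk31 (2.84), Taf7l (1.46), Tex101 (0.812) and Sycp1. Sycp3, Hormad1 and Dazl overlapped within their SDs (0.237, 0.197 and 0.428 CPM per kb). Transcripts of all 10 were thus present in the WT libraries, in 6 of them above the median tested gene.

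**Figure D2:**
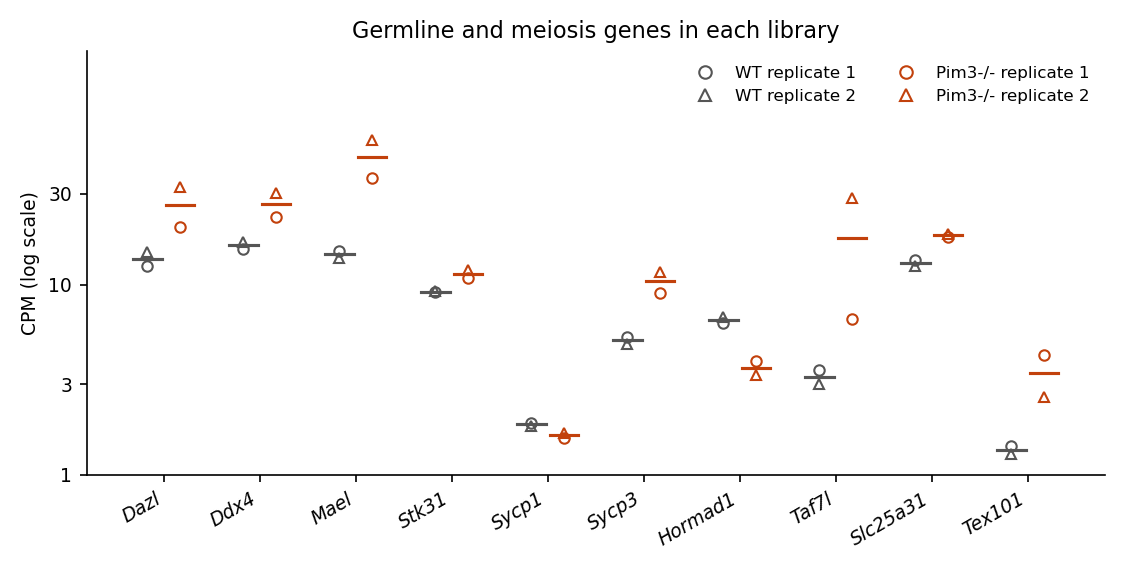
Level of each of the 10 genes in CPM on a log scale, with WT libraries in grey and Pim3-/- libraries in orange. Circles are replicate 1, triangles replicate 2 and bars the mean of the 2 libraries. The orange points lie above both grey points in 8 genes and below them in Sycp1 and Hormad1, and the Pim3-/- points of Taf7l lie far apart, at 6.59 and 28.6 CPM.

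The groups did not overlap in any of the 10 genes: both Pim3-/- libraries were above both WT libraries in 8 genes and below them in 2. Over all tested genes, 38.3% lay wholly above and 34.2% wholly below, so that separation of 2 libraries from 2 was common in these data. By edgeR's quasi-likelihood test, with p-values adjusted over 18444 genes, 6 of the 10 were higher and 1 was lower, beside 17.6% and 16.2% of all tested genes. 2 of the 10, Mael and Taf7l, were at least 3-fold higher, beside 8.47% of all tested genes. The median log2 fold change was 0.84, beside 0.07 over all tested genes and 0.18 over the 8629 tested genes with a mean level in the range of the 10 (1.73 to 30.8 CPM), of which 20.8% were higher. Without either WT library the spread is taken from the Pim3-/- pair alone, and Mael was then the 1 gene called higher, beside 2.03% of all tested genes without WT replicate 1 and 2.95% without WT replicate 2.

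Among the RNA-binding and germ granule genes, 3 of 4 were higher, beside 17.6% of all tested genes. Mael, which encodes a piRNA pathway protein needed for transposon silencing in the male germline, had 288 and 315 counts in WT, against 975 and 1484 in Pim3-/-. Both Pim3-/- libraries stood well above the WT pair, which differed little from each other. The level was 14.5 CPM ± 0.798 (SD, n = 2) in WT and 47.0 CPM ± 14.9 (SD, n = 2) in Pim3-/-, a log2 fold change of 1.70 (SE 0.24, adjusted p = 0.005). Mael lies at chr1:166201201-166238747 on the minus strand, and it was the single member called under each alternative that was run, with log2 fold changes of 1.32 to 2.15.

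Dazl, an RNA-binding protein that promotes translation in germ cells, had 239 and 335 counts in WT, against 538 and 843 in Pim3-/-. The lower Pim3-/- library was closer to the WT libraries than to the other Pim3-/- library. Its level was 13.6 CPM ± 1.64 (SD, n = 2) in WT and 26.4 CPM ± 8.87 (SD, n = 2) in Pim3-/-, a log2 fold change of 0.95 (SE 0.26, adjusted p = 0.0283). Ddx4, the Vasa RNA helicase and a long-used germ cell marker, had 295 and 379 counts in WT, against 605 and 787 in Pim3-/-. Its rise was the smallest of the 6 that passed, from 16.1 CPM ± 0.943 (SD, n = 2) to 26.6 CPM ± 5.56 (SD, n = 2), for a log2 fold change of 0.73 (SE 0.21, adjusted p = 0.0331). Stk31, a kinase-like protein with a Tudor domain, had 175 and 210 counts in WT, against 290 and 308 in Pim3-/-. Its groups did not overlap, yet the log2 fold change of 0.31 (SE 0.22, adjusted p = 0.301) did not pass. Dazl lies at chr17:50279395-50293636 on the minus strand, Ddx4 at chr13:112598333-112652475 on the minus strand and Stk31 at chr6:49395604-49469501 on the plus strand.

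The 3 genes of the meiotic chromosome axis and synaptonemal complex had 3 different outcomes. Sycp3, an axis protein of the complex, had 102 and 111 counts in WT, against 243 and 301 in Pim3-/-. Both Pim3-/- libraries were above the WT pair, at 10.4 CPM ± 1.82 (SD, n = 2) compared with 5.11 CPM ± 0.3 (SD, n = 2), for a log2 fold change of 1.02 (SE 0.26, adjusted p = 0.0215). The value is uncertain, because 660 exon bases of Sycp3 (52.2%) are shared with Chpt1 on the opposite strand and the sources used here do not say whether the counting used strand. Chpt1, an enzyme of phosphatidylcholine synthesis, had a log2 fold change of 0.45 (SE 0.25, adjusted p = 0.201).

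Hormad1, a HORMA domain protein that marks unsynapsed axes, went the other way. It had 121 and 154 counts in WT, against 106 and 86 in Pim3-/-, so the groups were separated before scaling. After scaling the levels were 6.56 CPM ± 0.341 (SD, n = 2) in WT and 3.65 CPM ± 0.449 (SD, n = 2) in Pim3-/-. The log2 fold change was -0.84 (SE 0.28, adjusted p = 0.0492), a decrease close to the threshold. With library totals it was -0.39 with an adjusted p of 0.301, and the call was lost in 7 of the 10 alternatives. Sycp1, the transverse filament protein of the complex, had 36 and 41 counts in WT, against 42 and 43 in Pim3-/-, the most even values of the 10. Its log2 fold change was -0.19 (SE 0.37, adjusted p = 0.717) and turned to 0.26 with library totals. RefSeq lists a pseudogene of Sycp1, and reads shared with it cannot be assigned here. Sycp3 lies at chr10:88459569-88473236 on the plus strand, Hormad1 at chr3:95559677-95587671 on the plus strand and Sycp1 at chr3:102818499-102936100 on the minus strand.

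Taf7l, a germ cell paralogue of a general transcription factor subunit, had the largest fold change of the 10 and the widest spread. It had 68 counts in each WT library, and 176 and 737 in Pim3-/- replicates 1 and 2. Replicate 2 thus stood far above the other 3 libraries, with replicate 1 nearer to WT. The level was 3.28 CPM ± 0.387 (SD, n = 2) in WT and 17.6 CPM ± 15.6 (SD, n = 2) in Pim3-/-, a log2 fold change of 2.42 (SE 0.61, adjusted p = 0.0219). Without Pim3-/- replicate 2 the log2 fold change was 1.00 and without replicate 1 it was 3.11. Taf7l lies at chrX:134460118-134476490 on the minus strand.

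Slc25a31, the germ cell ADP/ATP carrier of mitochondria, had 259 and 283 counts in WT, against 474 and 478 in Pim3-/-. Its libraries were tight in both groups, at 13.0 CPM ± 0.726 (SD, n = 2) and 18.2 CPM ± 0.554 (SD, n = 2), and the log2 fold change of 0.48 (SE 0.19, adjusted p = 0.0897) did not pass. It passed with library totals, at 0.93, and when either Pim3-/- library was left out. Tex101, a surface glycoprotein of germ cells, had the lowest WT counts of the 10, 27 and 29, and 114 and 66 in Pim3-/-. Here replicate 1 was the higher Pim3-/- library. The level rose from 1.35 CPM ± 0.0914 (SD, n = 2) to 3.42 CPM ± 1.21 (SD, n = 2), for a log2 fold change of 1.34 (SE 0.40, adjusted p = 0.0367), and the call was lost without that replicate, with an adjusted p of 0.0516. Slc25a31 lies at chr3:40708855-40726096 on the plus strand and Tex101 at chr7:24668007-24676675 on the minus strand.

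**Figure D3:**
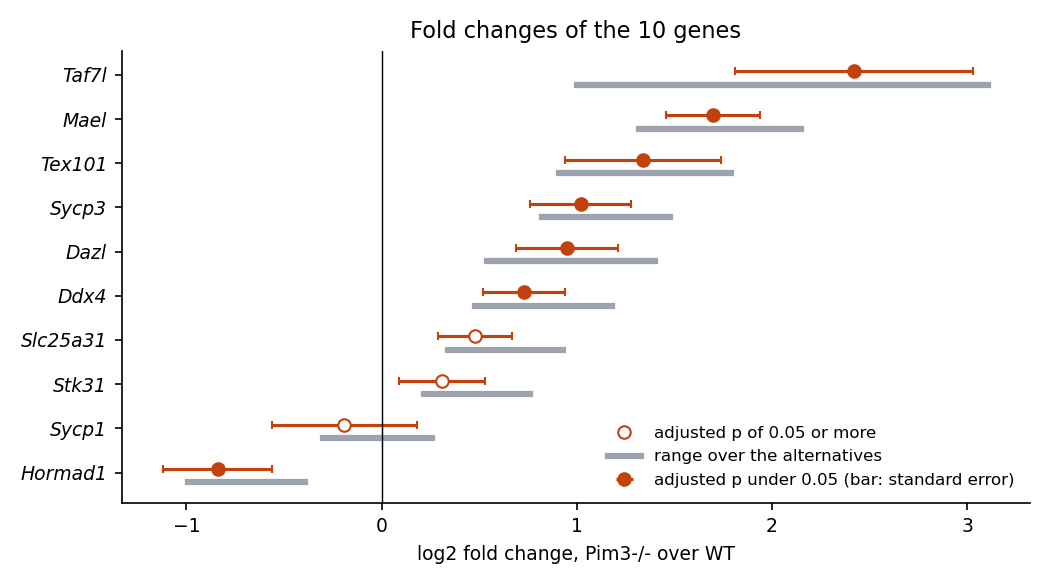
Log2 fold change of Pim3-/- over WT for the 10 genes, with thin bars for the SE, filled points for an adjusted p under 0.05 and grey bars for the range over the alternatives. The 6 genes that passed as higher run from 0.73 (Ddx4) to 2.42 (Taf7l), Hormad1 stands at -0.84, and the grey bar of Sycp1 alone crosses 0.

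The pair of Pim3-/- libraries differed in how far the genes moved. Over the WT mean, Mael was 2.52-fold in replicate 1 and 3.98-fold in replicate 2, Dazl 1.48-fold and 2.40-fold, and Taf7l 2.01-fold and 8.72-fold. Tex101 was the exception among the genes called higher, with 3.17-fold in replicate 1 and 1.90-fold in replicate 2. In all, 8 of the 10 genes were higher in replicate 2 than in replicate 1, beside 47.1% of all tested genes. The 11 2C genes (transcripts of the 2-cell embryo that a small share of ESCs express) and the 8 tested primitive endoderm genes had the opposite order, all of them higher in replicate 1. The other germline lists described below did not share the order of the 10. Of their 74 tested genes, 45 were higher in replicate 1 and 29 in replicate 2. The summed level of the 10 germline genes was 84.1 and 85.0 CPM in WT and 133 and 199 CPM in Pim3-/-, whereas that of the 2C genes was 20.9 and 19.4 CPM in WT and 214 and 64.6 CPM in Pim3-/-. All 11 2C genes were higher in the test, beside 17.6% of all tested genes, with a median log2 fold change of 2.93. Fewer of the 11 were called without either WT library. Some, such as Zscan4b with 5 and 7 counts in WT, passed the filter through the Pim3-/- libraries. The list was written with earlier results of these data known, and 6 of its 11 rows are copies of Zscan4 that can share reads. Their part in the germline result was not tested.

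**Figure D4:**
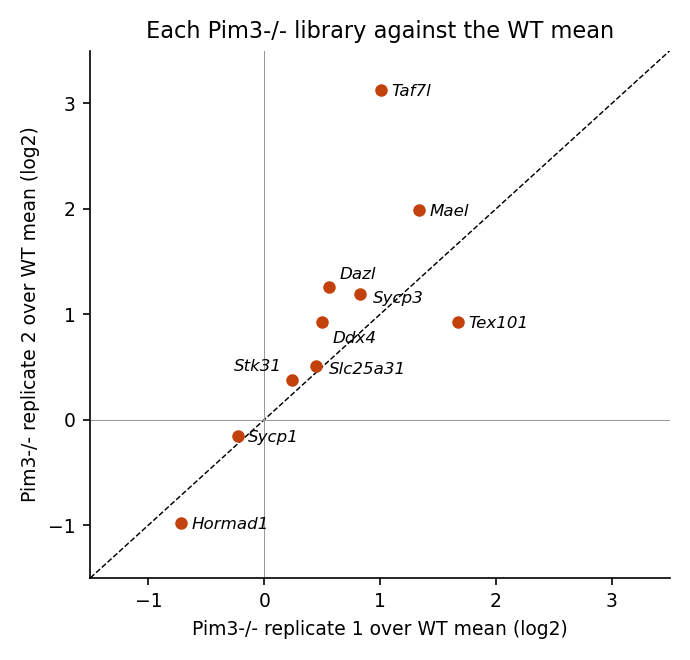
Log2 fold over the WT mean in Pim3-/- replicate 1 (x axis) and replicate 2 (y axis), 1 point per gene, with a dashed line of equal values. Taf7l lies farthest above the line, at 1.01 and 3.13, and the 2 genes below it are Tex101 and Hormad1.

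4 further lists of germline genes, without the 10, were compared with them. They hold genes of the germ granule and piRNA pathway, of meiotic chromosomes, of germline transcription regulation, and testis copies of housekeeping genes. Of their 84 genes 74 were tested, of which 22 (29.7%) were higher and 8 (10.8%) lower, beside 17.6% and 16.2% of all tested genes, with a median log2 fold change of 0.48. Some of the 22, such as Piwil1 and Terb1, had few WT counts and passed the filter through the Pim3-/- libraries, so they had to differ to be tested. With at least 10 counts in every library, 65 were tested, of which 16 (24.6%) were higher and 7 (10.8%) lower, beside 16.9% and 15.7% of all genes so tested. Most calls in these lists were lost without either WT library, where calls also became rare over all tested genes. Without Pim3-/- replicates 1 and 2 the median log2 fold change was 0.42 and 0.49, beside 0.06 and 0.05 over all tested genes. With library totals, 37 of the 74 were higher and 2 lower, where 35.8% and 5.92% of all tested genes were called. The summed level of all 84 was 1370 to 1490 CPM in WT and 1370 to 1450 CPM in Pim3-/-, ranges that overlap.

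Germ granule and piRNA genes had 8 of 25 higher and 2 lower, with a median of 0.61, and the 8 fell to 0 without either WT library. Piwil1, a PIWI protein that carries piRNAs, had 3 and 7 counts in WT, against 35 and 33 in Pim3-/-, a log2 fold change of 2.42 (SE 0.54, adjusted p = 0.0147). Tex19.2, a germ cell gene with a close paralogue that could share its reads, rose by 2.24 (SE 0.45, adjusted p = 0.011), and Asz1, a germ granule protein, by 1.79 (SE 0.44, adjusted p = 0.0205). Tdrd9, a helicase with a Tudor domain, had 13 and 15 counts in WT, against 96 and 33 in Pim3-/-, and its log2 fold change of 1.86 (SE 0.57, adjusted p = 0.0412) was 0.91 without Pim3-/- replicate 1.

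Meiotic chromosome genes had 9 of 32 higher and 3 lower, with a median of 0.48, and the 9 fell to 1 and 2 without WT replicates 1 and 2. Stra8, the retinoic acid responsive gene of meiotic entry, had 200 and 195 counts in WT, against 2702 and 1779 in Pim3-/-, far apart from WT in both libraries, and a log2 fold change of 3.16 (SE 0.24, adjusted p = 0.00187). Terb1, which ties telomeres to the nuclear envelope in meiosis, had 4 and 7 counts in WT, against 40 and 106 in Pim3-/-. Its log2 fold change was 3.39 (SE 0.65, adjusted p = 0.00961), or 2.47 without Pim3-/- replicate 2. The recombination genes Rnf212 and Mei1 rose from 6 counts or fewer per WT library. Rnf212 changed by 2.88 (SE 0.62, adjusted p = 0.0132), with 3.93 and 2.13 without WT replicates 1 and 2, and Mei1 by 2.44 (SE 0.62, adjusted p = 0.0216), or 1.72 without Pim3-/- replicate 1.

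Germline transcription regulators had 4 of 9 tested genes higher, and 1 and 0 without WT replicates 1 and 2. Brdt, a testis bromodomain protein, had 35 and 33 counts in WT, against 201 and 161 in Pim3-/-, a log2 fold change of 2.07 (SE 0.32, adjusted p = 0.00553). Sohlh1 had 1 and 2 counts in WT, against 18 and 19 in Pim3-/-, a ratio of 9.82 after scaling (95% exact interval 3.11 to 49.8, for counting error only). Sohlh1 passed the filter through the Pim3-/- libraries, so it had to differ to be tested. Its call was lost by the Wald test of DESeq2 (adjusted p = 0.0534). Its partner Sohlh2 was already well counted in WT, with 1408 and 1489 counts, and rose by 0.74 (SE 0.22, adjusted p = 0.0366). Ctcfl, the germline paralogue of the insulator protein CTCF, rose by 1.56 (SE 0.42, adjusted p = 0.0275, or 0.0677 by the Wald test of DESeq2), but shares exon bases with an annotated RNA on the opposite strand.

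The testis copies had 1 of 8 tested genes higher and 3 lower, with a median of -0.16. Ldhc, the sperm lactate dehydrogenase, had 159 and 172 counts in WT, against 81 and 23 in Pim3-/-, a log2 fold change of -2.01 (SE 0.51, adjusted p = 0.0213) that was -3.16 and -1.40 without Pim3-/- replicates 1 and 2. The ribosomal protein copies Rpl10l and Rpl39l, which could share reads with their parent genes, changed by -0.83 (SE 0.18, adjusted p = 0.013) and -0.75 (SE 0.19, adjusted p = 0.023), and neither passed with library totals. Dpep3, a dipeptidase of the testis that overlaps a gene on the opposite strand, had a log2 fold change of 1.18 (SE 0.36, adjusted p = 0.0384). Its call was lost with the replicate block (0.0505), without a filter (0.0506), by the Wald test (0.0925) and without WT replicate 1 (0.291) or 2 (0.261).

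**Figure D5:**
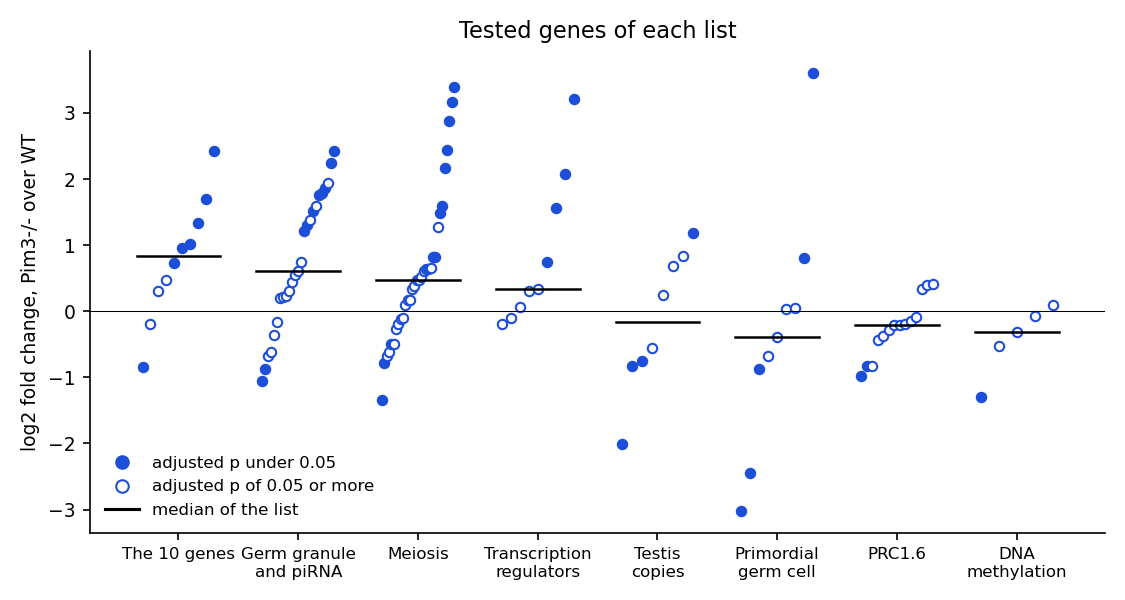
Log2 fold change of Pim3-/- over WT for each tested gene of the 10, the 4 germline lists, the primordial germ cell list, PRC1.6 and the DNA methylation genes, with 1 point per gene, filled where the adjusted p was under 0.05, and a bar at the median of each list. The medians of the 10 (0.84), of the germ granule (0.61) and of the meiosis list (0.48) lie above 0, and those of the testis copies (-0.16), PRC1.6 (-0.21) and DNA methylation genes (-0.32) below it.

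Genes of primordial germ cell specification changed in both directions, with 2 of 9 (22.2%) higher and 3 (33.3%) lower. Over all tested genes, 17.6% were higher and 16.2% lower. Ifitm3, an interferon-induced membrane protein, had 2597 and 2642 counts in WT, against 558 and 260 in Pim3-/-, a log2 fold change of -3.02 (SE 0.33, adjusted p = 0.00319), or -3.66 without Pim3-/- replicate 1. Dppa3, the Stella protein that protects the maternal genome after fertilisation, had 318 and 306 counts in WT, against 115 and 31 in Pim3-/-. Its log2 fold change was -2.44 (SE 0.51, adjusted p = 0.0121), with -3.66 and -1.82 without Pim3-/- replicates 1 and 2. Dnd1, an RNA-binding protein of germ cells that overlaps a gene on the opposite strand, fell by 0.88 on the log2 scale (SE 0.23, adjusted p = 0.0249), a call lost with library totals. Sox17, which is also an endoderm gene, had 1 and 5 counts in WT, against 85 and 10 in Pim3-/-. Its log2 fold change of 3.61 (SE 1.11, adjusted p = 0.0409) was 1.39 without Pim3-/- replicate 1, 4.41 without replicate 2, and 2.92 and 4.87 without WT replicates 1 and 2.

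Most spermatid genes were near the limit of counting. Of 14 spermatid and sperm genes, 11 had at most 3 counts in each library and 2 of these, Prm2 and Akap4, had none at all, which allows up to 0.112 to 0.157 CPM by library, and the summed level was 2.09 and 2.47 CPM in WT and 3.45 and 2.83 CPM in Pim3-/-. Of 11 oocyte genes, 3 were tested, 6 had at most 3 counts in each library, and Kpna7 and Zp3 held most of the summed level, which was 24.1 and 23.2 CPM in WT and 25.3 and 25.6 CPM in Pim3-/-. For the genes at 3 counts or fewer a difference was not detectable at this depth.

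Of 22 repressors known for germline genes, 4 (18.2%) were lower, a share near the 16.2% of all tested genes, and the others did not pass. The share changed with the setting. By the Wald test of DESeq2, 6 (27.3%) were lower, beside 17.3% of all tested genes. With library totals, 1 (4.55%) was lower, beside 5.92%. Of 14 subunits of PRC1.6, Cbx3, an HP1 protein, changed by -0.83 (SE 0.18, adjusted p = 0.0145) and Hdac1, a histone deacetylase, by -0.98 (SE 0.20, adjusted p = 0.0115), and both also work outside the complex. The other 12 did not pass, and the median of the 14 was -0.21. Of 5 genes of DNA methylation, Dnmt3b, a de novo methyltransferase, had 2448 and 3559 counts in WT, against 1781 and 1271 in Pim3-/-, with a log2 fold change of -1.30 (SE 0.21, adjusted p = 0.00636). Of 3 H3K9 methyltransferases, Ehmt2, the enzyme G9a, changed by -0.67 (SE 0.17, adjusted p = 0.0243). With library totals the decrease of Dnmt3b passed, at -0.85, and those of the other 3 genes did not, whereas Mga, Rybp and Yaf2 of PRC1.6 and the H3K9 methyltransferases Ehmt1 and Setdb1 were called higher, at 0.66 to 0.90. These 5 of 22 (22.7%) stand beside 35.8% of all tested genes called higher with that scaling. Without either WT library, Dnmt3b was the 1 repressor of the 4 that stayed called, and the adjusted p of Cbx3, Hdac1 and Ehmt2 was 0.0742 to 0.184. For the 22 repressors, leaving out Pim3-/- replicate 1 moved the median from -0.21 to -0.38 on the log2 scale. Leaving out replicate 2 moved it to -0.26. Medians over all tested genes were 0.06 and 0.05 in these settings, and 0.07 with every library. These are transcript levels, and neither methylation nor binding was measured here.

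Markers of other cell types were counted beside these results, where 17.6% of all tested genes were higher and 16.2% lower. 7 of 8 tested primitive endoderm markers were higher, and fewer without either WT library. Their summed level was 4.6 and 6.67 CPM in WT and 47.4 and 24.9 CPM in Pim3-/-. Some, such as Sox7 (3 and 0 counts in WT) and Sox17 (1 and 5), passed the filter through the Pim3-/- libraries. They thus had to differ to be tested. Of 9 markers of gonadal somatic cells 5 were tested and 1 was higher, Inha (adjusted p = 0.047, or 0.0544 without a filter), with a summed level of 7.57 to 8.61 CPM in WT and 11.4 to 11.6 CPM in Pim3-/-, and 1 of the 9, the FSH receptor Fshr, was at 0 in every library. Of 8 fibroblast markers 3 were tested and 1 was lower, with a summed level of 23.0 to 25.0 CPM in WT and 20.6 to 25.7 CPM in Pim3-/-, and 1 of the 8, Lum, was at 0 throughout. The ESC markers had 4 of 10 lower, among them Pou5f1 with a log2 fold change of -1.12 (adjusted p = 0.00993), and 1 higher, Klf4 with 1.44 (adjusted p = 0.00369). These calls depended on the scaling. With library totals 1 of the 10 was lower (Pou5f1, at -0.67) and 3 were higher, beside 5.92% and 35.8% of all tested genes. The part of these markers in the germline result was not tested.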

How the data were processed

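RNA-seq of 2 WT and 2 Pim3-/- libraries of E14 ESCs was analysed from the gene table. The authors deposited raw counts per gene, without normalization. The submitters' processing notes name Trim Galore, STAR, featureCounts and GRCm38, whereas the methods of the paper name Cutadapt, Hisat2, mm10 and Ensembl genes. Versions, the strand setting and the treatment of reads with several locations are not given in the sources used here, so genes with close copies or overlapping neighbours are uncertain. The deposited TE counts were not used here.

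Of 31418 genes with a count, 18444 remained after filterByExpr (a minimum of 10 counts and a total of 15) in edgeR 4.0.16. TMM factors were used for scaling, and Pim3-/- was tested against WT by the quasi-likelihood test of edgeR in R 4.3.3, on all tested genes, with Benjamini-Hochberg adjustment and a threshold of 0.05. SEs were derived from the F statistic. The methods were tested on simulated data. The floor was set at 3 counts per library, and intervals and floors cover counting error only. Positions and merged exon lengths are from GENCODE on GRCm38, promoter sequences from RefSeq on GRCm38.p6, 1 window per gene. Plots were made with matplotlib 3.10.9 (Python 3.11.15).

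The members, the lists and the tests were chosen with earlier results of these data known. All 10 members are named, and from each other list up to 4 called genes with the largest fold change and 10 or more counts in each library of the group with the higher level; all called repressors; and Pim3. Some marker lists are described by counts and sums, and genes called with library totals were named after their values were seen. Alternatives were DESeq2 1.42.0 size factors and Wald test, library totals, no filter, at least 10 counts in every library, a block for the replicate number and the omission of each library. Nothing in the labels pairs the libraries. p-values measure the spread between these libraries, and none is given from an exact permutation test, since 0.333 is the smallest that 2 against 2 libraries allow.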

Additional observations from a re-analysis of the deposited data

How the results depend on the processing

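Of the 10 genes, 6 were called higher with the size factors or the Wald test of DESeq2, without a filter, with at least 10 counts in every library and with the replicate block, and 8 with library totals. Over all genes so tested, the share called higher ran from 9.1% (no filter) to 18.5% (replicate block), and was 35.8% with library totals. Leaving out 1 library gave 1 to 7: 1 without either WT library (Mael), 6 without Pim3-/- replicate 1 and 7 without replicate 2. The lone library is then assumed to vary like the other group. Over all tested genes, calls also became far fewer without either WT library, and more frequent without either Pim3-/- library. The count at least 3-fold higher was 3 with library totals and 0 to 2 with 1 library left out. Hormad1 was the gene called lower. The count was 0 with library totals (adjusted p = 0.301), no filter (0.0558), at least 10 counts (0.0664), the Wald test (0.0576) and the replicate block (0.0602), and 0 to 1 with 1 library left out. Its unadjusted p stayed under 0.05 in 4 of these 5 settings, library totals being the exception. The median log2 fold change was 1.29 with library totals and 0.51 to 0.91 with 1 library left out, lowest without Pim3-/- replicate 2. In the other germline lists, library totals gave 37 higher and 2 lower, and leaving out 1 library gave 2 to 32 higher, 2 without either WT library, and 0 to 16 lower. The Wald test and at least 10 counts each gave 16 higher. Sycp1 (0.26) and Pim3 (0.19) changed sign with library totals, which shift all genes by 0.45. The cause of the other changes was not tested. The deviations of the replicate 1 libraries from their group means correlated at 0.02. With 2 libraries per group the replicate 2 deviations mirror these, so this 1 value cannot settle whether the numbers pair the libraries. The replicate block gave 21 higher and 11 lower in the germline lists.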

Other observations

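The E-box was also set beside the calls outside the 10 genes, a comparison chosen after the calls were known and given as counts only. Of the 1212 tested genes with an E-box in the promoter window, 18.3% were higher and 20.6% lower, and of the 10830 without one 18.0% and 17.1%. Among the other germline lists, 15 tested genes with a window held an E-box and 8 of them were higher, while 13 of the 46 without one were higher and 7 were lower. Of 25 tested genes of these lists with the E2F core, 5 (20.0%) were higher and 3 (12.0%) lower. Over all 4220 tested genes with the core, 18.9% were higher and 16.4% lower. Over all 61 tested genes of these lists with a window, 34.4% were higher and 11.5% lower. Whether these shares differ was not tested.

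Kit, the receptor tyrosine kinase of germ cells and several other cell types, was the second gene of the primordial germ cell list called higher, beside Sox17, with a log2 fold change of 0.81 (SE 0.17, adjusted p = 0.0114). It was well counted in both groups, at 51.0 CPM ± 4.87 (SD, n = 2) in WT and 89.4 CPM ± 2.95 (SD, n = 2) in Pim3-/-, and is named here after its value was seen.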
